A study of Mus musculus with 8 samples.

Results

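The Hippo kinases, their adaptors and the angiomotins were followed at the RNA level in brain endothelium with and without an endothelial deletion of Yap and Taz. The set was chosen by gene symbol and holds 10 of the 24394 genes found in all tables: the kinase genes Lats1, Lats2, Stk3 and Stk4, the adaptor and scaffold genes Sav1, Mob1a, Mob1b and Nf2, and the angiomotin genes Amotl1 and Amotl2. All 10 symbols were listed, 8 passed the filter on low values and could be tested, and 2 (Mob1a and Mob1b) did not.

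The endothelial cells were sorted by flow cytometry from the brains of C57BL/6J mice at postnatal day 8, with 4 libraries in each of 2 groups. WT libraries came from mice labelled wild type. The libraries titled YAPTAZ-ECKO, called YT-ECKO in the tables and here, came from mice that carried VE-cadherin-CreERT2 with Yapf/f and Tazf/f. Here a Cre recombinase fused to a modified oestrogen receptor, which needs an inducer such as tamoxifen to act, is driven by an endothelial promoter and recombines floxed Yap (Yap1) and Taz (Wwtr1) alleles. The labels name no inducer and do not say whether WT mice received one, so deletion, Cre and any inducer cannot be told apart. Nor do they say whether each library is a separate mouse, so the p-values describe only how far these libraries scatter, which may be technical.

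In the Hippo pathway, the kinases MST2 and MST1 (genes Stk3 and Stk4), bound to the scaffold salvador (Sav1), activate LATS1 and LATS2 with the help of the MOB1 adaptors. LATS kinases phosphorylate YAP and TAZ, which keeps these co-activators out of the nucleus and away from their TEAD partners. Merlin (Nf2) recruits LATS to the membrane, and angiomotins hold YAP and TAZ at junctions and the actin cytoskeleton and can also activate LATS. Lats2, Nf2 and Amotl2 have been described in other cell types as genes that YAP and TAZ switch on, which would make them a feedback loop, and in brain endothelium YAP and TAZ are known for their part in vessel sprouting.

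Because TEAD factors bind a short element known as the MCAT motif, the 250 bases before the RefSeq gene start (GRCm38.p6) were searched for GGAATG on both strands, so that CATTCC counts as a match on the opposite strand. The reference table held 11 such windows for 9 of the 10 genes, all but Stk3. Matches were found in 3 windows, those of Amotl2, Sav1 and Mob1a, with 1 match each, while 12.6% of all 32851 windows of this length held at least 1. The 30 bases around each match are shown 5′ to 3′ on the strand of the gene, with the motif in capitals.

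Amotl2: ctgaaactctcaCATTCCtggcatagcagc

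Sav1: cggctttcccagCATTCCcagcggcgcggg

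Mob1a: tggccagaatagCATTCCtttaggagaaga

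The Amotl2 stretch lies at chr9:102717727-102717756 on the plus strand, with the motif starting 65 bases before the RefSeq start. That window lies inside the GENCODE span of Amotl2 given below, which begins further upstream, and 136 of its 250 bases are annotated there as exon. That of Sav1 lies at chr12:69987091-69987120 on the minus strand, with the motif 106 bases before the start, and that of Mob1a at chr6:83325818-83325847 on the plus strand, 209 bases before the start. For Lats2, which had the largest log2 difference among the 8 tested members, neither of its windows held a match. The window of its upstream start (chr14:57746124-57746373, minus strand) is shown in full, and it has a GC content of 74.0% against a median of 52.4% over all windows.

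Lats2: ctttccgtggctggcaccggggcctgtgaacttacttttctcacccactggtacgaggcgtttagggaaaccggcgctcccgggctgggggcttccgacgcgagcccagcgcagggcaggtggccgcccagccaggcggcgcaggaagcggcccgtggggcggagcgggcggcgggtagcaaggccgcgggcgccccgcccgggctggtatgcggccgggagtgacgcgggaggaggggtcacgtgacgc

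A match describes these letters only and does not show that a factor binds there.

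Values are given as scaled reads, the deposited log2 values returned to the linear scale. Depth implied by the spacing of low values ran from 6.68 M reads (YT-ECKO 1) to 16.8 M reads (WT 1), and the library totals were 10.3 to 10.9 M scaled reads. YT-ECKO 1 stood apart: of the 8706 genes tested, 77.7% were above 0 there, against 85.6% to 94.9% in the other 7 libraries. Single genes varied widely within groups and could be listed at 0 in a library beside a high value in its replicates, so a 0 is given as listed at 0. Both targeted genes had lower values in all 4 YT-ECKO than in all 4 WT libraries. Wwtr1 ran from 348 to 2608 scaled reads in YT-ECKO and from 5650 to 8220 in WT, and Yap1 from 9.29 to 605 against 1409 to 2833. Sums of 12 endothelial markers overlapped between the groups (from 95860 to 111099 scaled reads in WT and from 98650 to 123668 in YT-ECKO). In bulk RNA, fewer cells of a type and less RNA per cell cannot be told apart.

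Of the 10 genes, 9 were above 0 in WT 1 and YT-ECKO 2, 8 in WT 2, WT 3, WT 4, YT-ECKO 3 and YT-ECKO 4, and 6 in YT-ECKO 1. Amotl1 dominated the set, taking 50.1% to 69.7% of the summed scaled reads of the 10 genes in each library. Per kilobase of annotated exon, Amotl1 stood at 499 scaled reads in WT (range 324 to 660), above the 87th percentile of the 8397 tested genes that had a gene model, as ranked by the mean over all 8 libraries (87.2). The labels name a Quant-Seq kit but do not settle which part of a transcript was read, so values per kilobase are an approximation. Next in WT came Nf2 at 111 (80.3 to 154), Lats2 at 104 (76.8 to 170) and Sav1 at 82.0 (53.7 to 113) scaled reads per kilobase. Stk3 at 35.9 (10.6 to 56.4), Amotl2 at 23.7 (9.35 to 47.2), Stk4 at 20.5 (0 to 49.7) and Lats1 at 15.2 (0 to 35.1) scaled reads per kilobase followed, and Mob1a and Mob1b closed the order at 6.29 and 2.95. Only the step from Amotl1 to Nf2 exceeded the spread between libraries. All other neighbours in this order overlapped. In YT-ECKO the means per kilobase again began with Amotl1 (445) and Nf2 (157), followed by Sav1 (106), Stk3 (range 21.6 to 87.4), Amotl2 (46.4), Lats2 (40.7), Stk4 (20.5) and Lats1 (18.9), so that Lats2 followed Amotl2.

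**Figure D1:**
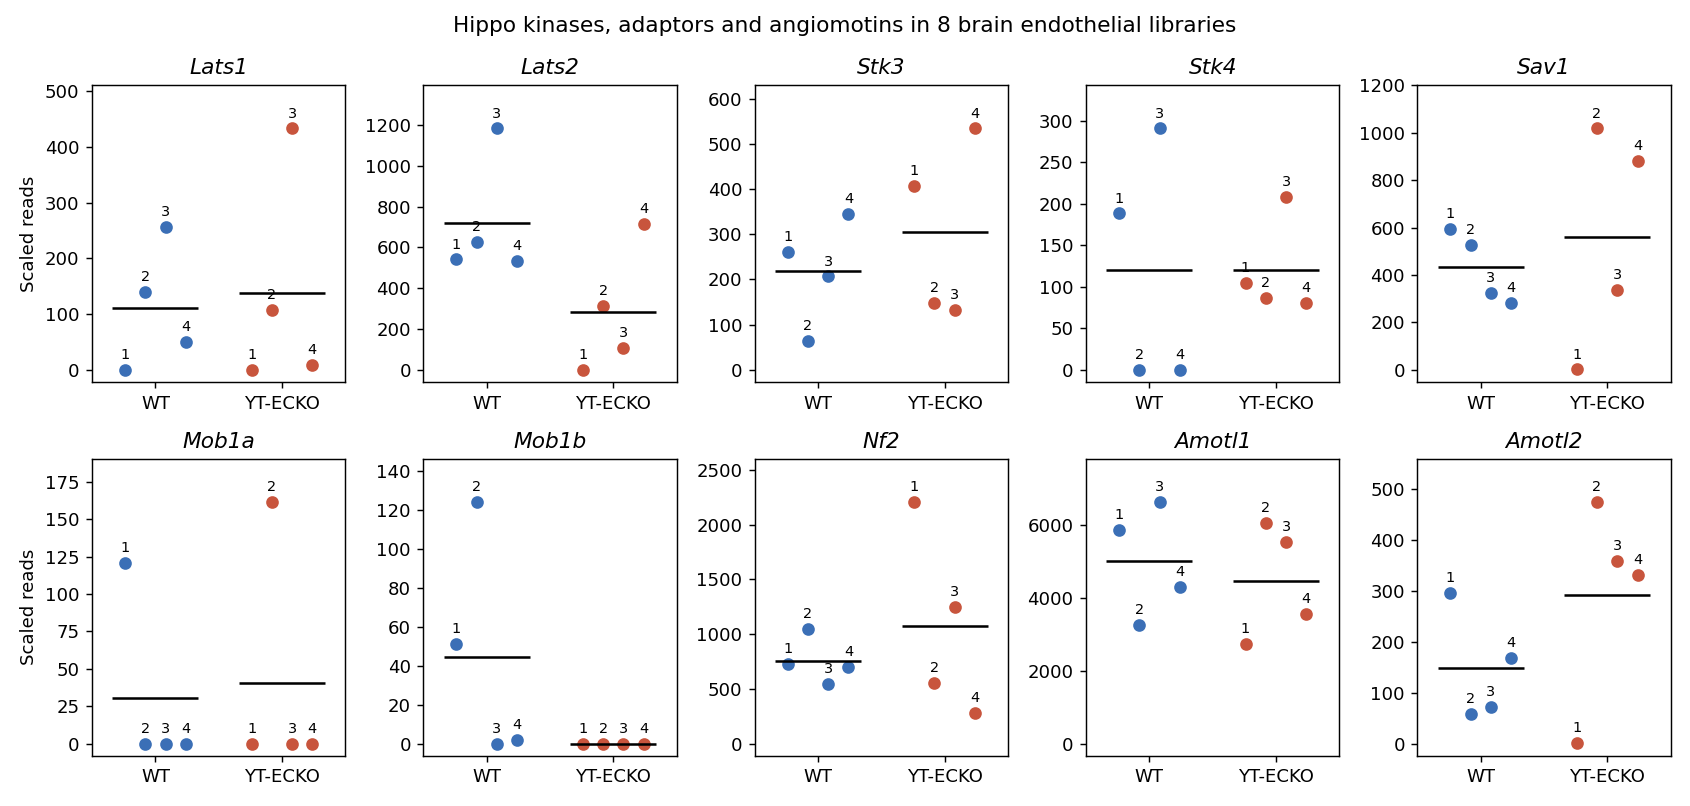
Scaled reads (linear scale, 1 panel per gene, each with its own axis from 0) of the 10 genes in WT 1 to 4 (blue) and YT-ECKO 1 to 4 (red); numbers give the library and horizontal lines the group mean. The groups overlap in every panel; Lats2 is below the lowest WT value of 535 in YT-ECKO 1, 2 and 3, and Amotl2 is above the highest WT value of 297 in YT-ECKO 2, 3 and 4.

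None of the 8 tested genes differed between the groups after adjustment over all genes (limma on log2(scaled reads + pseudocount), Benjamini-Hochberg adjusted p at or above 0.882). Over all genes tested, 3 passed, or 0.0345%. With voom, the other test run, 0 of all 8706 genes tested passed, so its 0 of the 8 adds nothing about these genes. At an unadjusted p under 0.05 there was 1 of the 8, Lats2, where the share over all genes tested was 5.47% (3.69% lower and 1.78% higher in YT-ECKO). The groups did not overlap for 0 of the 8, against 3.40% of all genes tested. In YT-ECKO, 4 of the 8 had lower and 4 higher fitted values, and of all genes tested 56.9% had lower and 43.1% higher values. The median log2 difference was 0.08 for the 8 genes and -0.09 for all genes tested. Among the 4 lower genes Lats1 had a difference of -0.001, so the count is loose, and without YT-ECKO 1 only 2 were lower.

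Lats2 (chromosome 14, 57689662 to 57758388, minus strand, GRCm38) encodes the LATS kinase that is itself listed among YAP/TAZ targets elsewhere. It stood at 541, 628, 1184 and 535 scaled reads in WT 1 to 4. In YT-ECKO it was listed at 0 in library 1 and stood at 314, 107 and 714 in libraries 2 to 4. Thus 3 YT-ECKO libraries lay below every WT library, and YT-ECKO 4 lay above 3 of the 4. The log2 difference was -1.32 ± 0.60 (SE; 95% confidence interval -2.55 to -0.10), with an unadjusted limma p of 0.0358 and an adjusted p of 0.882. The two-sided exact permutation test on scaled reads gave p = 0.114, where 4 libraries against 4 cannot go below 0.0286. Leaving out 1 library at a time, the difference ran from -1.78 (without YT-ECKO 4) to -0.88 (without YT-ECKO 1) and the unadjusted limma p from 0.00736 to 0.123. That p was above 0.05 without any 1 of WT 2, WT 3, YT-ECKO 1 and YT-ECKO 3. The size of the difference also moved with the scale, from -0.68 with the larger pseudocount tried to -3.28 on the log2 values as deposited. The annotation places a second gene model, Gm49361, over 6762 exon bases of Lats2 on the same strand, and 41.2% of the 50-base windows in Lats2 transcripts also occur in it. Gm49361 was not among the symbols found in all tables. No label or header says how the authors' counting treated reads that match both.

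Lats1 (chromosome 10, 7681214 to 7716460, plus strand), the paralogous kinase gene, was listed at 0 in WT 1 and YT-ECKO 1. It stood at 139, 256 and 49.7 scaled reads in WT 2 to 4 and at 108, 433 and 9.21 in YT-ECKO 2 to 4. The highest value of Lats1 thus came from YT-ECKO 3, the library in which Lats2 was lowest above 0. Its log2 difference was -0.001 ± 0.54 (SE), with a 95% interval from -1.11 to 1.11. Summed over both LATS genes, scaled reads were 541, 767, 1440 and 585 in WT 1 to 4, against 422, 540 and 723 in YT-ECKO 2 to 4, with both listed at 0 in YT-ECKO 1. As a share of this sum Lats2 made up 100%, 81.9%, 82.2% and 91.5% in WT 1 to 4 and 74.4%, 19.8% and 98.7% in YT-ECKO 2 to 4. The mean share was 88.9% ± 8.65 (SD, n = 4) in WT and 64.3% ± 40.4 (SD, n = 3) in YT-ECKO, a difference of -24.6 percentage points (two-sided exact permutation p = 0.286, 0.429 adjusted over 3 pairs, smallest possible 0.0571). Without YT-ECKO 3 the difference was -2.34 points, so that library carried most of it.

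For the MST kinase genes no difference was detected, but the intervals were wide. Stk3 (chromosome 15, 34875496 to 35178921, minus strand), which encodes MST2, stood at 261, 64.5, 207 and 345 scaled reads in WT 1 to 4 and at 408, 149, 132 and 534 in YT-ECKO 1 to 4. The 2 highest values were those of YT-ECKO 4 and YT-ECKO 1, but the other YT-ECKO libraries lay inside the WT range. Stk4 (chromosome 2, 164070322 to 164155524, plus strand), which encodes MST1, was listed at 0 in WT 2 and WT 4 and stood at 189 and 291 in WT 1 and WT 3. In YT-ECKO 1 to 4 it stood at 105, 86.9, 209 and 80.4 scaled reads. All 4 YT-ECKO values of Stk4 thus lay inside the wide WT range. Log2 differences were 0.28 ± 0.58 for Stk3 and 0.17 ± 0.52 for Stk4 (SE), with 95% intervals from -0.93 to 1.48 and from -0.91 to 1.25. The Stk4 difference moved with the scale, to 2.86 ± 2.39 on the log2 values as deposited and 3.18 ± 2.28 with voom (SE). The share of Stk4 in the sum of both genes was 25.1% ± 29.7 in WT and 32.9% ± 21.4 in YT-ECKO (SD, n = 4 each; two-sided exact permutation p = 0.714, also after adjustment). The gene span of Tomm34 lies over 121 exon bases of Stk4 on the opposite strand, and no label or header gives the strand setting of the counting.

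**Figure D2:**
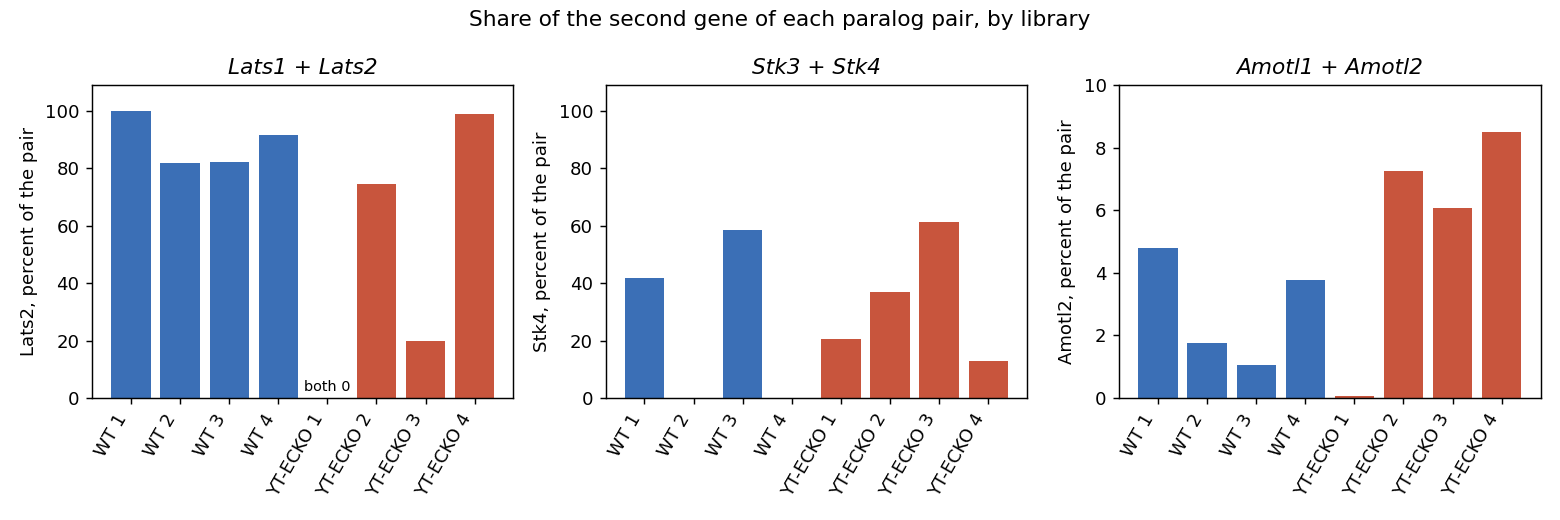
Share of the second gene in the summed scaled reads of 3 paralog pairs (percent, bars from 0, 1 bar per library; WT blue, YT-ECKO red; the axis of the right panel ends at 10%). Lats2 makes up at least 81.9% of its pair in WT but 19.8% in YT-ECKO 3, and Amotl2 makes up 6.08% to 8.50% of its pair in YT-ECKO 2, 3 and 4 against at most 4.80% in WT.

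Among adaptor genes, Sav1 (chromosome 12, 69965012 to 69987002, minus strand), the scaffold that joins MST to LATS, stood at 595, 526, 323 and 282 scaled reads in WT 1 to 4. In YT-ECKO 1 it stood at 1.59, close to the value of a single read there (1.55), and in YT-ECKO 2 to 4 at 1018, 335 and 882. The lowest and the 2 highest of the 8 values thus came from YT-ECKO. The log2 difference was -0.08 ± 0.63 (SE; 95% interval -1.37 to 1.21), and without YT-ECKO 1 it was 0.58. Atl1 lies over 1336 exon bases of Sav1 on the opposite strand. It stood at 1.48 to 79.7 scaled reads in WT and at 217 or less in YT-ECKO, and Gm3086, a pseudogene over 1480 exon bases on the same opposite strand, stood at 218 in YT-ECKO 3 and was listed at 0 elsewhere. Their part in the Sav1 values was not tested.

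Nf2 (chromosome 11, 4765845 to 4849536, minus strand), which encodes merlin, stood at 728, 1049, 548 and 703 scaled reads in WT 1 to 4 and at 2206, 558, 1252 and 283 in YT-ECKO 1 to 4. YT-ECKO 1, where Lats2 was listed at 0 and Sav1 and Amotl2 were near a single read, had the highest Nf2 value of all. The spread within YT-ECKO, with an SD of 1.10 on the log2(scaled reads + pseudocount) scale, was wider than within WT (0.33). The median SD over all genes tested was 0.73 in YT-ECKO and 0.57 in WT. Group means were 757 ± 210 in WT and 1075 ± 857 in YT-ECKO scaled reads (SD, n = 4 each), with a log2 difference of 0.17 ± 0.52 (SE; 95% interval -0.90 to 1.24). Without YT-ECKO 1 the difference was -0.25.

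The MOB1 genes were barely detected. Mob1a (chromosome 6, 83326016 to 83343776, plus strand) was above 0 in WT 1 (121 scaled reads) and YT-ECKO 2 (161) and listed at 0 in the other 6 libraries. Mob1b (chromosome 5, 88720855 to 88764220, plus strand) was above 0 in WT 1, WT 2 and WT 4 (51.1, 124 and 1.99 scaled reads) and listed at 0 in WT 3 and in all 4 YT-ECKO libraries. Neither reached 10 scaled reads in 4 libraries, so limma was not run on them and no fold is given. The exact permutation p for Mob1b was 0.143 (two-sided). Their annotated transcripts share no window of 50 bases with each other, so full-length matches of that size would not pass from one to the other. Mob4, a more distant MOB gene that belongs to the STRIPAK phosphatase complex, stood at 1059 to 2126 scaled reads in WT and 597 to 1445 in YT-ECKO.

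The angiomotin genes showed opposite signs without passing the test. Amotl1 (chromosome 9, 14541966 to 14645056, minus strand) stood at 5882, 3265, 6640 and 4300 scaled reads in WT 1 to 4 and at 2734, 6068, 5537 and 3576 in YT-ECKO 1 to 4. The lowest of these 8 values was that of YT-ECKO 1, and the other YT-ECKO values lay inside the WT range. Means were 5022 ± 1524 in WT and 4479 ± 1582 in YT-ECKO (SD, n = 4 each). Among the 8 tested members it had the narrowest interval, with a log2 difference of -0.18 ± 0.33 (SE) and limits of -0.86 and 0.50. A fall of Amotl1 by more than 0.86 on this scale lies outside this interval, which holds only for this scaling and these libraries. With upper quartile scaling the Amotl1 difference was -0.38 ± 0.35 (SE), and without YT-ECKO 1 it was 0.03 ± 0.33 (SE).

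Amotl2 (chromosome 9, 102716672 to 102733418, plus strand), widely used elsewhere as a YAP/TAZ target, stood at 297, 58.8, 71.9 and 169 scaled reads in WT 1 to 4. It stood at 1.59, 474, 359 and 332 in YT-ECKO 1 to 4. The 3 highest of the 8 values were those of YT-ECKO 2, 3 and 4, while YT-ECKO 1 was lowest at about the value of a single read. The log2 difference was 0.47 ± 0.61 (SE; 95% interval -0.78 to 1.72; exact permutation p = 0.286), and 0.97 ± 0.58 without YT-ECKO 1 (unadjusted limma p = 0.106). Its sign turned to -0.31 on the log2 values as deposited. The share of Amotl2 in the sum of both genes was 2.86% ± 1.73 in WT and 5.47% ± 3.74 in YT-ECKO (SD, n = 4 each), a difference of 2.61 points (two-sided exact permutation p = 0.257, adjusted p = 0.429). Without YT-ECKO 1 all 3 remaining libraries lay above all WT libraries and the difference was 4.42 points, with an exact permutation p of 0.0571, the smallest that 4 against 3 allows. This library was singled out after its values were seen.

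Amot, the third angiomotin gene and X-linked (145446425 to 145505181, minus strand), stood at 435, 367, 154 and 649 scaled reads in WT 1 to 4 and 329, 304, 112 and 200 in YT-ECKO 1 to 4. The log2 difference for Amot was -0.49 ± 0.57 (SE), with an adjusted limma p of 0.990. Sums of 4 Y-linked genes did not overlap between the groups (4.43 to 471 scaled reads in WT, 486 to 1379 in YT-ECKO), though by a narrow gap. The X inactivation gene Xist did overlap, at 4611 to 22931 scaled reads in WT and 6.91 to 8434 in YT-ECKO. Xist and the Y-linked sum were both above 0 in every library, but in places only by a few reads. WT 2 had a Y-linked sum of 4.43 beside Xist at 8255, where a single read stood at about 1.44. YT-ECKO 4 had Xist at 6.91 beside a Y-linked sum of 1379, where a single read stood at about 1.15. No label gives sex, and its part in these values was not tested.

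**Figure D3:**
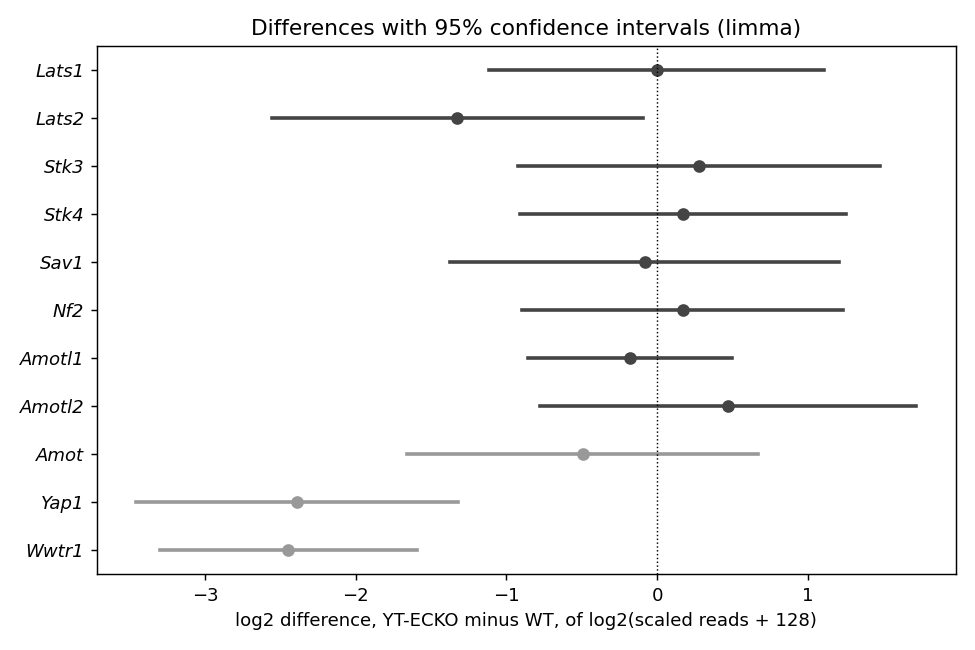
Log2 differences (YT-ECKO minus WT, on the log2(scaled reads + pseudocount) scale; points) with 95% limma confidence intervals (bars) for the 8 tested genes (dark) and for Amot, Yap1 and Wwtr1 (grey). Of the 8, Lats2 alone has an interval that leaves out 0 (-2.55 to -0.10), before any adjustment for the number of genes, and Amotl1 has the narrowest (-0.86 to 0.50).

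Several of these signs rested on YT-ECKO 1. Leaving it out turned Lats1 to 0.26, Sav1 to 0.58, Nf2 to -0.25 and Amotl1 to 0.03, and left Lats2 at -0.88, Stk3 at 0.14, Stk4 at 0.19 and Amotl2 at 0.97. This library had the lowest implied depth, the lowest share of tested genes above 0 and the lowest Yap1 and Wwtr1 values (9.29 and 348 scaled reads). Depth and residual Yap1 or Wwtr1 therefore cannot be told apart in it.

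**Figure D4:**
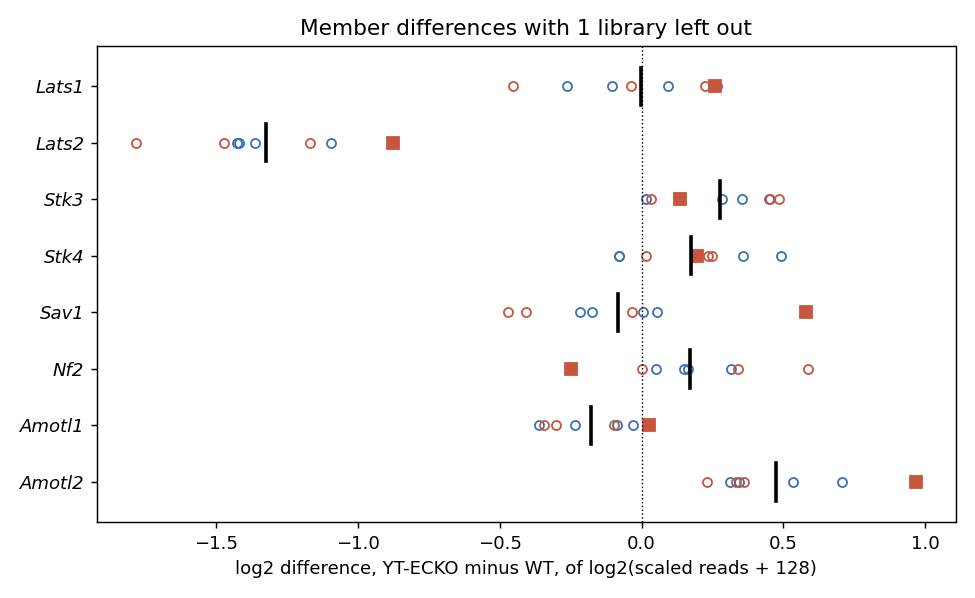
Log2 difference (YT-ECKO minus WT) of the 8 tested genes in all libraries (black line) and with 1 library left out (blue circles, a WT library; red circles, a YT-ECKO library; filled red square, YT-ECKO 1). Lats2 stays below 0 (-1.78 to -0.88) and Amotl2 and Stk3 above 0 throughout, while the other 5 genes cross 0.

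Genes around the core were taken from 8 lists of 93 gene symbols, some of them alternative names of the same gene. Of the 93 symbols, 89 were listed and 75 tested. Of these, 38 had lower and 37 higher values in YT-ECKO, none passed over all genes (limma), 4 had an unadjusted p under 0.05 (5.47% over all genes tested), and the median log2 difference was -0.003 (-0.09 over all genes tested). The counts of lower and higher values in each list stand against 56.9% lower and 43.1% higher over all genes tested, and no list was compared with another. The kinases acting upstream of or parallel to LATS had higher values in 11 of 15 (median 0.26). Map4k4, the most abundant of them and a MAP4 kinase that can phosphorylate LATS, stood at 12451 to 20424 scaled reads in WT and 12908 to 21905 in YT-ECKO. Mink1, of the same kinase family, was listed at 0 in WT 2 and WT 4, stood at 66.3 and 748 in WT 1 and WT 3, and at 2807, 457, 123 and 1089 in YT-ECKO 1 to 4. Its log2 difference was 1.89 ± 0.74 (SE), and limma gave an unadjusted p of 0.0193 and an adjusted p of 0.823. Taok1, a TAO kinase that activates MST, stood at 2943 to 4567 in WT and 3769 to 5435 in YT-ECKO.

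Of the LIM domain and RASSF regulators, 6 of 8 had lower values (median -0.50) and none passed over all genes (limma). Trip6, which encodes a LIM protein reported to bind and inhibit LATS, stood at 258, 87.5, 97.0 and 402 scaled reads in WT 1 to 4. Among YT-ECKO libraries, numbers 1 and 2 had it listed at 0, and numbers 3 and 4 at 66.8 and 3.46, so the groups did not overlap. Its log2 difference was -1.14 ± 0.47 (SE), and limma gave an unadjusted p of 0.0223 and an adjusted p of 0.823. Wtip, of the Ajuba family of LIM proteins, stood at 758, 573, 295 and 779 in WT 1 to 4 and at 192, 247, 71.4 and 346 in YT-ECKO 1 to 4 (log2 difference -1.10 ± 0.55, SE; limma adjusted p = 0.928). In that list the most abundant gene was Lpp, with 1492 to 3806 scaled reads in WT and 679 to 2931 in YT-ECKO.

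Of the partners of angiomotin and merlin, 7 of 11 had lower values (median -0.12). Mpdz, a multi-PDZ junction scaffold, stood at 176 to 548 scaled reads in WT and at 0, 55.8, 329 and 0 in YT-ECKO 1 to 4. Its log2 difference was -1.34 ± 0.59 (SE), and limma gave an unadjusted p of 0.0321 and an adjusted p of 0.882. Frmd4a, which encodes a FERM domain scaffold, stood at 270 to 1151 in WT and 1.16 to 686 in YT-ECKO. In the STRIPAK complex, which dephosphorylates MST kinases, 5 of 13 genes had lower values (median 0.14). Strn3, a striatin gene of the complex, stood at 3456 to 4191 scaled reads in WT and 3329 to 5450 in YT-ECKO. Among casein kinase 1 and 14-3-3 genes, 3 of 8 were lower (median 0.11). Csnk1d, a kinase that primes YAP and TAZ for degradation after LATS, stood at 3891, 3558, 3848 and 2884 in WT 1 to 4 and at 5785, 11577, 5231 and 5124 in YT-ECKO 1 to 4. These groups did not overlap, and the log2 difference was 0.86 ± 0.31 (SE), and limma gave an unadjusted p of 0.0107 and an adjusted p of 0.737. Ywhaz, a 14-3-3 gene, stood at 4817 to 8903 in WT and 1807 to 10058 in YT-ECKO.

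In the ubiquitin ligase list 9 of 13 genes had lower values (median -0.16). Pja2, which encodes praja2, a ligase reported to target MOB1, stood at 1062 to 2301 scaled reads in WT and 653 to 1472 in YT-ECKO (limma adjusted p = 0.928). Nedd4l, with 462 or less in WT and 166 to 1670 in YT-ECKO, had a log2 difference of 0.86 ± 0.65 (SE), and Ddb1 ranged from 4660 to 5666 and from 3423 to 5857. Other MOB genes split 2 and 2 (median -0.25): Mob2 stood at 131 to 1063 in WT and 71.3 to 668 in YT-ECKO. Mob3a reached at most 21.5 and 198 and Mob3c at most 391 and 293 scaled reads in WT and YT-ECKO. For the atypical cadherins, 2 of 3 tested genes were lower (median -0.08), with Dchs1 at 278 to 493 against 11.5 to 299 and Fat1 at 1.48 to 204 against 10.8 to 194 scaled reads. The co-activator and TEAD list, which holds the deleted genes, had 4 of 5 lower and 1 that passed, Wwtr1 (-2.45 ± 0.41, SE; limma adjusted p = 0.0113). Yap1, the other targeted gene, did not pass (-2.39 ± 0.52, SE, limma adjusted p = 0.175), although its groups did not overlap. A gene that does not pass is thus not shown to be unchanged. Without any 1 of WT 1 to 4 or without YT-ECKO 4, Wwtr1 had an adjusted p between 0.0501 and 0.0783 (limma). Its call was also lost with the smaller pseudocount (limma adjusted p = 0.0823), with voom (adjusted p = 0.106), on deposited log2 values (limma adjusted p = 0.250) and without a filter on low values (limma adjusted p = 0.854), with log2 differences from -2.62 to -2.45.

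**Figure D5:**
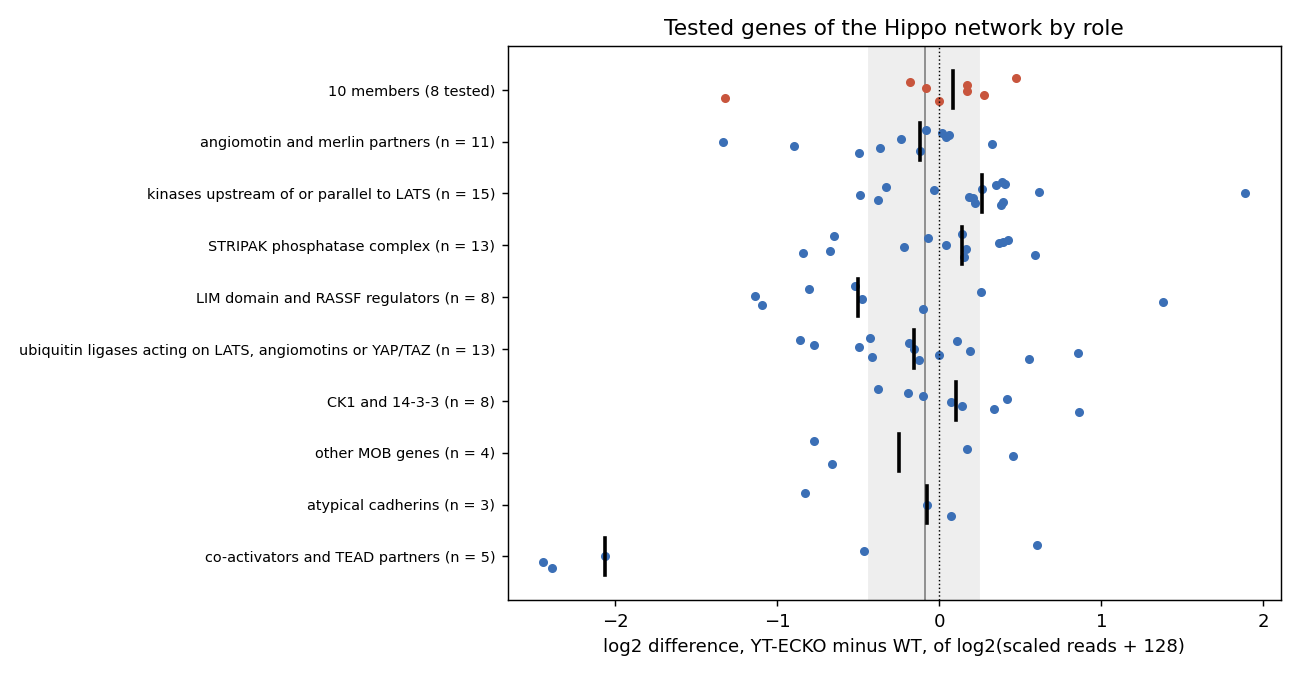
Log2 difference (YT-ECKO minus WT) of each tested gene (points) in the member set (red) and in 9 lists of the Hippo network (blue), with list medians as black bars; the grey band spans the middle quartiles of all tested genes (-0.43 to 0.25) and the grey line their median (-0.09). List medians lie between -0.50 and 0.26 except for the list with the deleted genes (-2.06).

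Genes whose pattern over the 8 libraries lay nearest were found by the root mean square difference of centred log2(scaled reads + pseudocount) values among genes with a mean of at least 1000. For Lats2 these were Tsnax (0.46), Slc35f2 (0.49) and Reep3 (0.51), against a median of 1.11 over 1935 genes. All 3 had their lowest value in YT-ECKO 1, as Lats2 did. They were picked for likeness over these same libraries, so this likeness is no separate result. For Amotl1 the nearest were Foxq1 (0.16), Cnot6 (0.17) and Lhfpl2 (0.17), against a median of 0.66 over 1934 genes. Foxq1, a forkhead factor gene, stood at 6780, 5353, 8249 and 5454 scaled reads in WT 1 to 4. In YT-ECKO 1 to 4 Foxq1 stood at 4414, 8353, 7777 and 4523. It was high and low in nearly the same libraries as Amotl1, which is what it was picked for.

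Markers of other cell types were looked at beside these values. Of 10 pericyte markers, 8 were above 0 in some WT and 8 in some YT-ECKO library, their sums ran from 114 to 1406 and from 3.13 to 1404 scaled reads, and Anpep was at 0 throughout; Rgs5 and Abcc9 were the most abundant. Fibroblast sums (Col1a1 and Dcn leading) ran from 74.6 to 266 in WT and from 0 to 179 in YT-ECKO, with 4 and 1 of 5 markers above 0 and Lum at 0 throughout, and smooth muscle sums (Tagln, Acta2) from 252 to 415 and from 28.3 to 355, with 5 and 3 of 5 above 0. Astrocyte sums, led by Gja1 and Slc1a2, ran from 788 to 1240 and 497 to 1075 (6 and 4 of 7 markers above 0). Neuronal sums, led by Rbfox3 and Stmn2, ran from 5.97 to 187 and from 0 to 1896, with 3 and 4 of 8 markers above 0 and the highest sum in YT-ECKO 1. Oligodendrocyte lineage sums, led by Cnp and Mbp, ran from 1.99 to 521 in WT and 165 to 1283 in YT-ECKO (4 and 3 of 8), and microglial sums from 161 to 1043 and 1.51 to 330 (4 and 3 of 8, with P2ry12, C1qa and Tmem119 at 0). Of 8 erythroid markers, 3 (among them Hba-a2, a near-identical copy of Hba-a1) repeated the values of another marker in every library and were counted once. The erythroid sums over the remaining 5, led by Hba-a1 and Hbb-bs, ran from 8937 to 25046 scaled reads in WT and 9039 to 30023 in YT-ECKO (5 and 4 of 5 above 0). Leukocyte markers were above 0 in WT 3 alone (S100a9 and Lyz2, together 270). The groups overlapped for each of these sums, and their part in the values of the 10 genes was not tested.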

How the data were processed

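The authors deposited 1 table per library with gene symbols and log2 values, read here, from the values, as log2 of reads scaled to a common library size. Bowtie2, edgeR and mm10 are named per the submitters' processing notes; versions, the counting tool, its strand setting and its annotation: not given in the sources used here. RNA was extracted with Trizol and 500 ng went into each library, per the labels' protocols. Values above 0 were returned to the linear scale. Per library, 88.3% to 100% of linear values below 12 came within 0.1 of whole multiples of a library-specific step, and the total divided by that step gave the implied depth. Of 24421 symbols, 27 were not shared by all tables.

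Genes reaching 10 scaled reads in 4 or more libraries (8706) were tested with limma 3.58.1 (R 4.3.3; trended, robust, no covariates) on log2(scaled reads + 128), with Benjamini-Hochberg adjustment and a threshold of 0.05. The design named a count test only for raw counts. Single genes and shares were compared by two-sided exact permutation tests (scipy 1.17.1; 10 single-gene tests of members). Alternatives covered pseudocounts of 16 and 512, deposited log2 values, filters, scaling, voom on rebuilt reads, a replicate block and each library left out. On simulated libraries limma called 3 of 97 genes changed 2-fold, 12 of 91 changed 4-fold and 1 of 7771 unchanged genes. Members and lists were chosen with earlier results of these data known. Named genes were the members, Yap1, Wwtr1 and Amot, per network list the 2 smallest p and the highest mean, per cell type the 2 most abundant, and the 3 nearest patterns of Lats2 (smallest p) and Amotl1 (highest mean). A few genes that this rule names are not reported here. Gene models are from GENCODE M21 (GRCm38), promoters from RefSeq (GRCm38.p6).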

Additional observations from a re-analysis of the deposited data

Results flagged for a closer look

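In each group of 4 libraries, a value was singled out when its gap to the nearest other library as a share of the group's range exceeded Dixon's 95% critical value. About 1 in 20 such groups is expected for normally distributed values. Scaled reads with values at 0 depart from that, and some of the genes were picked by smallest p. The 9 of 69 groups over 35 genes singled out here are therefore not set against that rate. For the Hippo genes these were Lats2 in WT 3 (1184 scaled reads, the next 628), Mob1a in WT 1 (121, the others listed at 0) and Mob1a in YT-ECKO 2 (161, the others listed at 0). Around the core they were Mpdz in YT-ECKO 3 (329, the next 55.8), Mink1 in WT 3 (748, the next 66.3) and Trip6 in YT-ECKO 3 (66.8, the next 3.46). The remaining values were Nedd4l in YT-ECKO 2 (1670, the next 354), Csnk1d in YT-ECKO 2 (11577, the next 5785) and Mob3c in YT-ECKO 4 (293, the next 42.2).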

How the results depend on the processing

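Under 17 alternatives 0 of the 8 tested members passed over all genes. Of 136 member values, 118 kept their sign and 18 turned, none of them Lats2. With the larger pseudocount, 2 members were lower, Lats1 was 0.030 and Sav1 0.071; on the deposited log2 values Amotl2 was -0.31; library totals gave Lats1 0.013, upper quartile scaling Nf2 -0.013, and voom Lats1 0.21 and Stk3 -0.020. Left-out libraries turned Lats1 to 0.09 (WT 2), 0.27 (WT 3), 0.26 (YT-ECKO 1) and 0.22 (YT-ECKO 4), Sav1 to 0.05 (WT 1), 0.0055 (WT 2) and 0.58 (YT-ECKO 1), Stk4 to -0.079 (WT 2 or WT 4), Nf2 to -0.25 and Amotl1 to 0.027 (YT-ECKO 1). Over these fits Lats1 ran from -0.45 to 0.27, Sav1 from -0.47 to 0.58, Stk4 from -0.079 to 0.49, Nf2 from -0.25 to 0.59 and Amotl1 from -0.36 to 0.027. With 1 library left out, members lower numbered 2 to 5, their median was -0.09 to 0.17, and genes called over all genes 0 to 7. That number was 3 in the test as designed and 0 on deposited log2 values, without a filter or with voom. The cause was not tested.

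The replicate number as a block gave 5 calls over all genes and changed no member's call. Deviations of same-numbered libraries correlated at -0.03, -0.04, 0.07 and 0.08. These correlations cannot show whether libraries shared a litter or a batch, which no label gives. Leaving out a library moved the Lats2 share difference between -41.8 and -2.34 points, that of Stk4 between -1.64 and 18.9 (-0.55 without WT 2 or WT 4, -1.64 without YT-ECKO 3) and that of Amotl2 between 1.61 and 4.42. The median of all genes moved from -0.09 to -0.22 with upper quartile scaling, -0.26 with voom, -0.20 with the smaller pseudocount and -0.28 on deposited log2 values, where the members' median, 0.08 as designed, was -0.04, 0.05, -0.02 and -0.25. In libraries simulated with equal depth and the same spread setting in both groups, 3.09% of genes changed 2-fold were called. Most differences of that size were thus missed under those settings. The measured libraries differed in depth and spread, so the share may not carry over to them.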

Other observations

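Ajuba, which encodes a LIM protein that binds LATS, did not reach the filter and was picked out after its values were seen. It stood at 125, 256 and 130 scaled reads in WT 1 to 3, was listed at 0 in WT 4, and in YT-ECKO stood at 3.04 in library 3 and was listed at 0 in libraries 1, 2 and 4. Rassf2, of the RASSF family that can bind MST kinases, was likewise picked out after its values were seen, because its groups did not overlap. It stood at 757, 728, 812 and 1463 scaled reads in WT 1 to 4 and at 394, 505, 643 and 349 in YT-ECKO 1 to 4, with a log2 difference of -0.80 ± 0.48 (SE), an unadjusted limma p of 0.103 and an adjusted p of 0.960. Neither gene is shown to differ between the groups.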
